A study of Mus musculus with 29 samples.

Results

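Gene expression was compared between mutant MPP4 (multipotent progenitor population 4) and mutant LT-HSC (long-term haematopoietic stem cells), both from bone marrow of C57BL/6 mice with a mutation in Dnmt3a, the gene of a de novo DNA methyltransferase. The libraries were chosen by the genotype and population in their column names and comprised 4 of mutant MPP4 and 3 of mutant LT-HSC, of 29 in the series. All mice, the controls included, were young and had received pIpC 6 weeks earlier, an agent that mimics viral RNA and is commonly given to switch on an interferon-inducible Cre recombinase. The mutant allele, the Cre line and the sorting gates are not given in the sources used here. Mutant ST-HSC (short-term haematopoietic stem cells, 4 libraries) and mutant MPP3 (4 libraries) shared the estimate of the spread, and the same population difference was measured between control MPP4 and control LT-HSC (4 libraries each). The labels do not say whether replicates came from separate mice, so the p-values speak only of the scatter among these libraries, part of which may be technical.

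LT-HSC divide rarely and can rebuild the whole blood system over the life of an animal. MPP4, also called lymphoid-primed multipotent progenitors, lie downstream of them, carry the cytokine receptor FLT3 and give rise to lymphocytes, granulocytes and monocytes, but to few platelets or red cells. In the mouse, LT-HSC are usually sorted as cells that carry the SLAM receptor CD150, the product of Slamf1, and lack CD48 and FLT3, and MPP4 as cells that carry FLT3 and lack CD150.

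The mutant MPP4 libraries held 7410008 to 8740114 counts and the mutant LT-HSC libraries 8040593 to 9416995. Levels are given as CPM, the counts of a gene relative to the library size scaled by TMM factors; they are not divided by transcript length, so they compare libraries and not genes. No count in a library leaves room for a level of up to 3 counts, which is 0.326 to 0.429 CPM in the mutant MPP4 libraries and 0.301 to 0.345 CPM in the mutant LT-HSC libraries, for counting error only. Differences are on the log2 scale, mutant MPP4 minus mutant LT-HSC, with their standard error (SE). A gene is said to have risen or fallen in MPP4 where its adjusted p was under 0.05 in edgeR's quasi-likelihood test with Benjamini-Hochberg adjustment over all genes tested.

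Genes of the lymphoid and of the granulocyte and monocyte lines, led by Dntt, Satb1, Flt3 and Mpo, rose in mutant MPP4. Genes of stem cells and megakaryocytes, such as Gata2, Pf4 and Itga2b, fell, and so did some erythroid genes, such as Aqp1. Of 14766 genes tested, 133 rose (0.901%) and 189 fell (1.28%), against a median difference of 0.02 over all genes. These 2 shares are the background for the called members of every gene list below. The absolute difference of these 322 genes (2.18% of those tested) had a median of 2.55 and was at least 0.70. The libraries of the 2 populations did not overlap for 318 of the 322, against 2028 of all genes tested (13.7%). In these bulk samples, fewer cells with a transcript and less of it per cell cannot be told apart. The counts depended on the libraries in the fit: with the 7 libraries of both populations alone, 237 genes rose and 292 fell. Without mutant LT-HSC replicate 1, 2 or 3, 77, 73 or 65 rose and 107, 107 or 109 fell, and without mutant MPP4 replicate 1, 122 fell.

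**Figure D1:**
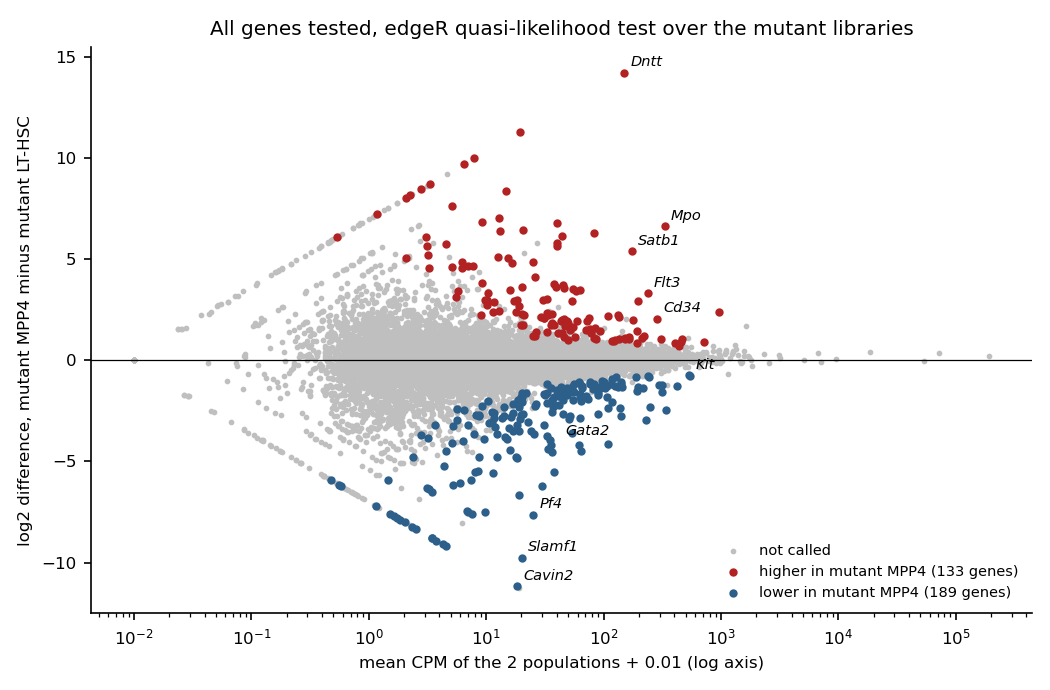
Each point is 1 of 14766 genes, with the mean CPM of mutant MPP4 and mutant LT-HSC plus 0.01 on a horizontal log axis and the log2 difference, mutant MPP4 minus mutant LT-HSC, on the vertical axis. The 133 genes that rose and the 189 that fell are coloured and reach farthest from 0 on both sides.

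Transcripts of surface proteins by which such cells are usually sorted followed the labels for Flt3, Cd48 and Slamf1. Since the gates are not given, whether the sort used these proteins is not known. Flt3 (ENSMUSG00000042817, chromosome 5, 147330741 to 147400489, GRCm38), the FLT3 receptor gene, had 438, 423, 459 and 408 CPM in mutant MPP4, against 38.7, 29.3 and 60.2 CPM in mutant LT-HSC. Every MPP4 value lay far above every LT-HSC value, with a difference of 3.34 ± 0.27 (SE, adjusted p = 8.11e-07). Cd48 (ENSMUSG00000015355, chromosome 1, 171682009 to 171705258), the gene of an adhesion receptor that LT-HSC lack, had 55.8, 58.9, 40.0 and 40.7 CPM in mutant MPP4, against 3.31, 1.496 and 0.114 CPM in mutant LT-HSC, and rose by 4.86 ± 0.84 (SE, adjusted p = 0.00246). Slamf1 (ENSMUSG00000015316, chromosome 1, 171767127 to 171801184), the CD150 gene, had 0, 0, 0.121 and 0 CPM in mutant MPP4, against 31.1, 34.9 and 54.1 CPM in mutant LT-HSC. Its single count in mutant MPP4 made it 1285-fold lower there, with a counting interval of 230.2 to 50800.0 (95%, exact, counting error only), and an adjusted p of 0.0238. Slamf1 had an adjusted p of 0.0502 to 0.112 without any single library and of 2.45e-06 with the 7 libraries alone. DESeq2 did not call it. Mutant ST-HSC, which shared the estimate of the spread in the main fit, had 1.83, 406, 0.776 and 1.08 CPM of Slamf1. The part of the high ST-HSC library, replicate 2, in these p-values was not tested.

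Of 15 sorting markers, listed here as surface proteins used to sort stem and progenitor cells in general, 5 rose in mutant MPP4 and 6 fell. The 5 that rose were 3 without mutant LT-HSC replicate 2 or 3. Cd34 (chromosome 1, 194938819 to 194961279), whose product is low on LT-HSC, had 322, 471, 614 and 446 CPM in mutant MPP4, against 101, 128 and 101 CPM in mutant LT-HSC. All 4 MPP4 values were higher, and the difference was 2.07 ± 0.23 (SE, adjusted p = 3.07e-05). Cd244a, a SLAM family receptor gene, had 28.5, 8.65, 15.3 and 16.4 CPM in mutant MPP4, against 1.80, 0.806 and 1.03 CPM in mutant LT-HSC, a difference of 3.81 ± 0.77 (SE, adjusted p = 0.00911), with an adjusted p up to 0.0723 with 1 library left out. Il7r (chromosome 15, 9505788 to 9530176), the interleukin-7 receptor gene, had 21.9, 17.4, 8.48 and 15.7 CPM in mutant MPP4, against 0, 0 and 0 CPM in mutant LT-HSC. Il7r was at least 48.2-fold higher in mutant MPP4 (adjusted p = 0.0281, and 0.0428 to 0.128 without any single library). Tek, the angiopoietin receptor gene, averaged 3.09 ± 1.31 CPM in mutant MPP4, against 35.0 ± 4.64 CPM in mutant LT-HSC (SD, n = 4 and 3), and Esam, an endothelial adhesion gene, averaged 4.10 ± 2.91 CPM in mutant MPP4, against 28.5 ± 3.06 CPM in mutant LT-HSC; both fell. Kit, the stem cell factor receptor gene, averaged 399 ± 31.9 CPM in mutant MPP4, against 669 ± 45.8 CPM in mutant LT-HSC. Kit differed by -0.75 ± 0.17 (SE), with an adjusted p of 0.0217, and 0.0388 to 0.107 without any single library. Ly6a, Procr, Cd27 and Eng were not called by edgeR. Procr, the endothelial protein C receptor gene, had 14.3, 15.9, 11.4 and 8.90 CPM in mutant MPP4, against 10.5, 52.9 and 53.4 CPM in mutant LT-HSC. Mutant LT-HSC replicate 1 lay within the MPP4 range of Procr (difference -1.63 ± 0.68, adjusted p = 0.36). Cd27, a TNF receptor family gene, had 226, 298, 393 and 221 CPM in mutant MPP4, against 109, 184 and 128 CPM in mutant LT-HSC (difference 1.01 ± 0.28, adjusted p = 0.0792 in edgeR); DESeq2, limma and edgeR with the 7 libraries alone, with no filter or with the replicate block called it higher, with an adjusted p down to 0.017.

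**Figure D2:**
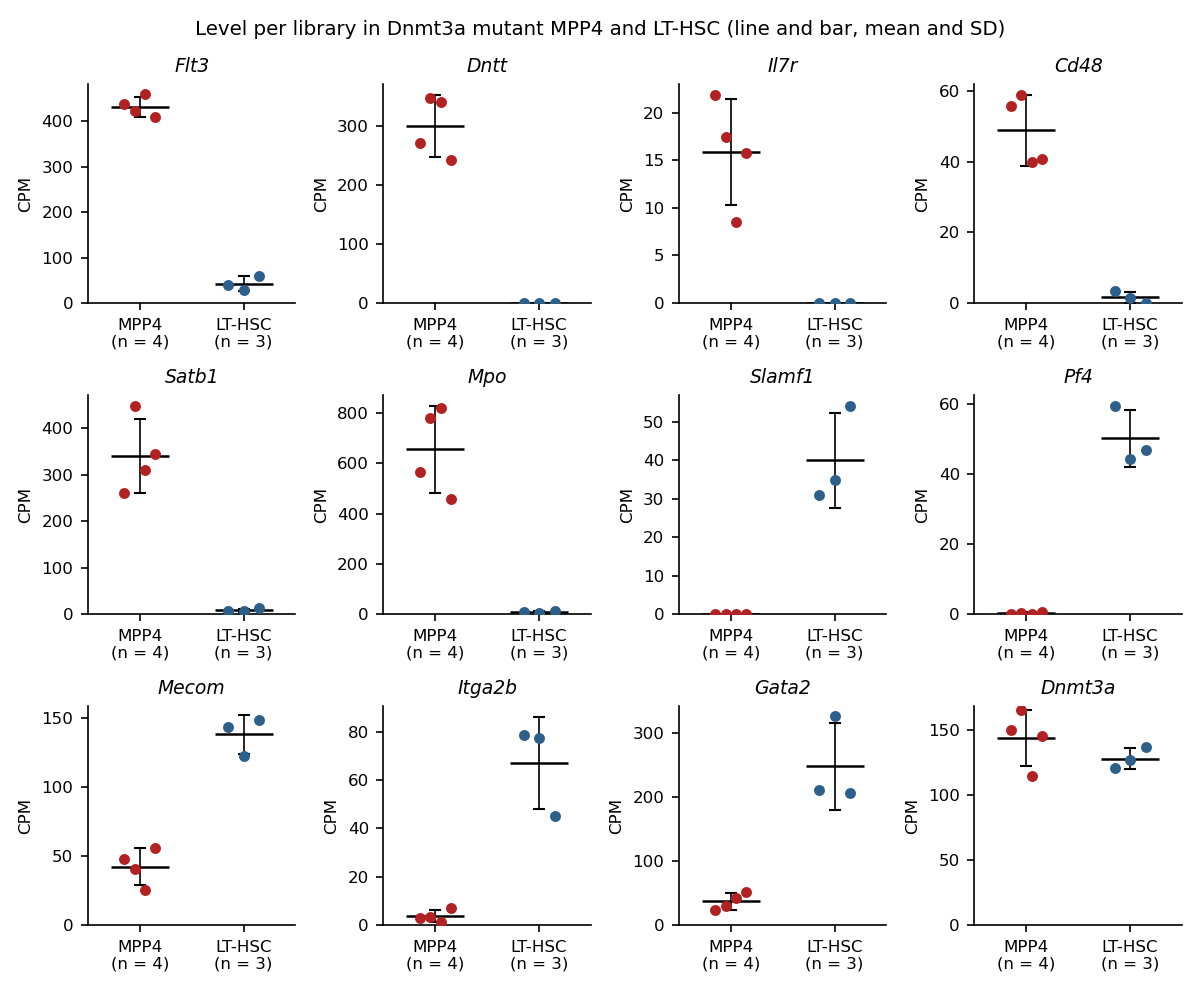
CPM of 12 genes in each library of mutant MPP4 (left, n = 4) and mutant LT-HSC (right, n = 3), with the mean and SD. Flt3, Dntt, Il7r, Cd48, Satb1 and Mpo are higher in every mutant MPP4 library, Slamf1, Pf4, Mecom, Itga2b and Gata2 are lower in every one, and the Dnmt3a values overlap.

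Dnmt3a itself (chromosome 12, 3806007 to 3914443) did not separate the populations. It had 150.2, 165, 114 and 146 CPM in mutant MPP4, against 120.3, 127 and 137 CPM in mutant LT-HSC, and the values overlapped, with a difference of 0.17 ± 0.27 (SE, adjusted p = 0.965). Since the allele is not given, its total count is no check of the genotype. Of 18 tested genes of the DNA methylation machinery, edgeR, DESeq2 and limma with voom weights called 0, and 0 had an unadjusted p under 0.05.

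Lymphoid priming genes were higher in mutant MPP4 for 24 of 28, with 10 called higher (background 0.901%) and 1 lower (background 1.28%) and a median difference of 1.38. Dntt (ENSMUSG00000025014, chromosome 19, 41029275 to 41059525) encodes the terminal transferase that adds bases at the joints of antigen receptor genes. It had 270.4, 348, 340.2 and 242 CPM in mutant MPP4, against 0, 0 and 0 CPM in mutant LT-HSC. Dntt was thus at least 910.0-fold higher in mutant MPP4, taking the floor of 3 counts in each LT-HSC library (adjusted p = 4.55e-07). Satb1 (chromosome 17, 51736187 to 51833290), the gene of a chromatin organiser of lymphocytes, had 260.4, 448, 310.0 and 345 CPM in mutant MPP4, against 6.01, 5.98 and 12.4 CPM in mutant LT-HSC, with no overlap and a difference of 5.39 ± 0.42 (SE, adjusted p = 5.3e-07). Notch1, the receptor gene that directs T-cell fate, had 178, 211, 139 and 186 CPM in mutant MPP4, against 27.6, 40.0 and 49.6 CPM in mutant LT-HSC, a difference of 2.19 ± 0.31 (SE, adjusted p = 0.000347). Rag2, a recombinase gene of antigen receptor rearrangement, averaged 18.2 ± 5.87 CPM in mutant MPP4, against 0.143 ± 0.125 CPM in mutant LT-HSC. Blnk, a B-cell adaptor gene, averaged 17.7 ± 8.05 CPM in mutant MPP4, against 2.64 ± 2.01 CPM in mutant LT-HSC. Flt3, Il7r, Ikzf1 and Sox4 were among the other members that rose. Ikzf3, a zinc finger factor gene of mature lymphocytes, fell, with an average of 0.372 ± 0.407 CPM in mutant MPP4, against 5.15 ± 1.82 CPM in mutant LT-HSC (adjusted p = 0.047, and 0.0372 to 0.152 without any single library). The 11 tested markers of mature B cells had a summed level of 331.6 to 604.3 CPM in the mutant MPP4 libraries, against 83.0 to 288.6 CPM in the mutant LT-HSC libraries, most of it from Ighm and Cd74; edgeR called 0 of the 11, DESeq2 1 and limma 0, and 4 had an unadjusted p under 0.05. Of the 11, 8 were higher in mutant MPP4, with a median of 0.78. Pax5, the B-cell identity factor gene, averaged 2.15 ± 2.12 CPM in mutant MPP4, against 0.611 ± 0.174 CPM in mutant LT-HSC, and Cd79a, a B-cell receptor subunit gene, averaged 4.99 ± 3.05 CPM in mutant MPP4, against 1.99 ± 1.01 CPM in mutant LT-HSC. Ms4a1 was the 1 marker at 0 in every mutant MPP4 library and averaged 0.501 CPM in mutant LT-HSC. The part of B cells in the lymphoid counts was not tested.

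Granulocyte and monocyte priming genes were higher in mutant MPP4 for 21 of 27, with 9 called higher and 0 lower and a median difference of 1.18. Mpo (chromosome 11, 87793581 to 87804413), the myeloperoxidase gene, had 564, 781, 819.9 and 458 CPM in mutant MPP4, against 6.11, 2.53 and 11.2 CPM in mutant LT-HSC. Its values lay far apart, with a difference of 6.63 ± 0.60 (SE, adjusted p = 2.6e-06). Clec12a, a C-type lectin receptor gene of myeloid cells, had 98.6, 56.2, 105 and 57.8 CPM in mutant MPP4, against 1.70, 1.84 and 0.686 CPM in mutant LT-HSC, a difference of 5.79 ± 0.54 (SE, adjusted p = 3.7e-06). Ctsg, the cathepsin G gene, had 50.9, 15.2, 40.2 and 11.4 CPM in mutant MPP4, against 0, 0 and 0.229 CPM in mutant LT-HSC. Ctsg was 386-fold higher in mutant MPP4 (counting interval 107 to 3194, adjusted p = 2.65e-05), with 2 counts in mutant LT-HSC. Irf8, a transcription factor gene of monocytes and dendritic cells, had 59.9, 35.7, 58.6 and 43.4 CPM in mutant MPP4, against 5.41, 0.806 and 2.29 CPM in mutant LT-HSC, a difference of 4.11 ± 0.83 (SE, adjusted p = 0.0091), with an adjusted p up to 0.0738 with 1 library left out. Plac8 rose by 3.44 ± 0.60, and Csf3r, the G-CSF receptor gene, averaged 206 ± 22.9 CPM in mutant MPP4, against 97.6 ± 17.8 CPM in mutant LT-HSC. Csf2rb, Igsf6 and Elane were the other members that rose. Igsf6 (adjusted p = 0.038 in edgeR, and 0.0441 to 0.202 without any single library) and Elane (adjusted p = 0.0407, and 0.0291 to 0.153) were not called by limma. The count of 9 was 4 without mutant LT-HSC replicate 2 and 4 without mutant LT-HSC replicate 3. Of 14 tested neutrophil markers edgeR, DESeq2 and limma called 0, and 0 had an unadjusted p under 0.05. Of these 14 markers 4 were higher and 10 lower in mutant MPP4, with a median of -0.80. Neutrophil markers summed to 55.5 to 374.0 CPM in mutant MPP4, against 113.8 to 505.1 CPM in mutant LT-HSC. Macrophage markers summed to 52.0 to 113.9 CPM in mutant MPP4, against 32.2 to 40.3 CPM in mutant LT-HSC, with 0 of 10 called by edgeR, 1 by DESeq2 and 0 by limma, while 3 had an unadjusted p under 0.05. Of these 10 markers 7 were higher in mutant MPP4, with a median of 0.38; Csf1r, the macrophage growth factor receptor gene, averaged 22.3 ± 15.1 CPM in mutant MPP4, against 3.51 ± 2.44 CPM in mutant LT-HSC, and Marco was at 0 in both. All 8 tested dendritic cell markers were higher in mutant MPP4, with a median of 1.12. Flt3 was the 1 that edgeR and limma called, while DESeq2 called 2 and 3 had an unadjusted p under 0.05. Xcr1, a chemokine receptor gene of dendritic cells, averaged 45.5 ± 14.5 CPM in mutant MPP4, against 23.6 ± 6.72 CPM in mutant LT-HSC, and Cd209a was at 0 in both populations. The part of macrophages and dendritic cells in these counts was not tested.

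Outside these lists, the smallest p-values among genes that rose belonged to genes of several roles. Atp8b4, a phospholipid flippase gene, had 77.1, 106, 61.6 and 68.6 CPM in mutant MPP4, against 2.60, 0.921 and 1.03 CPM in mutant LT-HSC, a difference of 5.66 ± 0.43 (SE, adjusted p = 4.55e-07) with no overlap. Cd53, a tetraspanin gene of leukocytes, had 120.2, 119, 80.3 and 138 CPM in mutant MPP4, against 9.02, 11.9 and 10.1 CPM in mutant LT-HSC, a difference of 3.47 ± 0.32 (SE, adjusted p = 2.6e-06). Ccl3, a chemokine gene of the TNF and NF-kB response, had 62.7, 121, 74.2 and 94.7 CPM in mutant MPP4, against 0.1002, 2.07 and 1.60 CPM in mutant LT-HSC, a difference of 6.12 ± 0.62 (SE, adjusted p = 9.5e-06). BC035044 and Chdh, the choline dehydrogenase gene, rose by 6.80 ± 0.62 and 6.46 ± 0.71. Among genes with no count in mutant LT-HSC, Arpp21, a phosphoprotein gene, was at least 118-fold higher in mutant MPP4, and Sema3d, a semaphorin gene, at least 39.3-fold higher (adjusted p up to 0.0584 with 1 library left out). Igll1, the gene of the surrogate light chain of early B cells, was 273-fold higher (counting interval 48.6 to 10810.0, adjusted p up to 0.0872 with 1 library left out).

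Genes known for high RNA in LT-HSC were lower in mutant MPP4 for all 29 tested, with 13 called lower, 0 called higher and a median of -2.08. Gata2 (chromosome 6, 88193891 to 88207032), a transcription factor gene of stem cells, had 23.03, 29.6, 42.4 and 52.1 CPM in mutant MPP4, against 211, 326 and 206 CPM in mutant LT-HSC. Every MPP4 value lay below every LT-HSC value, with a difference of -2.76 ± 0.31 (SE, adjusted p = 3e-05). Mecom (chromosome 3, 29951296 to 30548008), which encodes the stem cell factor EVI1, had 47.8, 40.7, 25.1 and 55.9 CPM in mutant MPP4, against 143, 122 and 149 CPM in mutant LT-HSC, a difference of -1.71 ± 0.26 (SE, adjusted p = 0.000857) with no overlap. Meis1, the gene of a Hox cofactor, fell by 1.22 ± 0.22 on the log2 scale, and Tek, Esam and Slamf1 are described above. Hlf, a transcription factor gene of stem cells, was not called and averaged 614 ± 69.2 CPM in mutant MPP4 and 679 ± 48.0 CPM in mutant LT-HSC (difference -0.15 ± 0.17, adjusted p = 0.936). Fgd5, whose locus marks LT-HSC, averaged 5.77 ± 4.54 CPM in mutant MPP4, against 34.6 ± 19.7 CPM in mutant LT-HSC and was not called either (difference -2.59 ± 0.84, adjusted p = 0.151). The count of 13 was 8 without mutant MPP4 replicate 4, 8 without mutant LT-HSC replicate 3, and 7 without mutant LT-HSC replicate 1 or 2.

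Megakaryocyte and platelet genes were lower in mutant MPP4 for 23 of 24 tested, with 17 called lower, 0 called higher and a median of -3.05. Pf4 (chromosome 5, 90772435 to 90773383), the platelet factor 4 gene, had 0, 0.251, 0.121 and 0.543 CPM in mutant MPP4, against 59.5, 44.3 and 46.8 CPM in mutant LT-HSC, a difference of -7.62 ± 0.87 (SE, adjusted p = 3.39e-05). Cavin2 (chromosome 1, 51289126 to 51302960), a gene of caveolae that platelets also express, had 0, 0, 0 and 0 CPM in mutant MPP4, against 35.8, 28.1 and 45.4 CPM in mutant LT-HSC, and was at least 97.5-fold lower in mutant MPP4 (adjusted p = 6.58e-05). Itga2b (chromosome 11, 102453297 to 102470122), the gene of the platelet integrin CD41, had 2.72, 3.51, 1.33 and 7.06 CPM in mutant MPP4, against 78.7, 77.6 and 45.2 CPM in mutant LT-HSC. All MPP4 values of these genes were below all LT-HSC values, and Itga2b differed by -4.19 ± 0.53 (SE, adjusted p = 8.64e-05). Gp5 (chromosome 16, 30307685 to 30310779), the platelet glycoprotein V gene, had 0, 0, 0.242 and 0 CPM in mutant MPP4, against 23.4, 16.8 and 4.69 CPM in mutant LT-HSC, and was 249-fold lower in mutant MPP4 (counting interval 68.5 to 2063, adjusted p = 0.00118). Zfpm1, the gene of the GATA cofactor FOG1, had 11.02, 13.2, 12.5 and 17.5 CPM in mutant MPP4, against 82.1, 113 and 75.1 CPM in mutant LT-HSC, a difference of -2.74 ± 0.28 (SE, adjusted p = 9.56e-06). F2r, a thrombin receptor gene, fell by 2.36 ± 0.29 on the log2 scale, and Vwf, the von Willebrand factor gene, averaged 44.4 ± 14.9 CPM in mutant MPP4, against 134 ± 25.6 CPM in mutant LT-HSC. Late platelet markers, a list that shares genes with this one, summed to 3.01 to 21.8 CPM in the mutant MPP4 libraries, against 123.3 to 170.2 CPM in the mutant LT-HSC libraries; Gp6 was at 0 in both populations and Ppbp averaged 0.520 ± 0.958 CPM in mutant MPP4 and 2.21 ± 2.19 CPM in mutant LT-HSC. The part of platelets in these differences was not tested.

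The promoters of Dntt, the gene with the smallest p among those that rose, and of Gp5 and Itga2b, platelet genes that fell, are shown to set these genes beside their upstream letters, from 250 bases before to 50 bases after the transcript start (RefSeq, GRCm38.p6). The windows are chr19:41029025-41029324 on the plus strand for Dntt, and chr16:30310732-30311031 and chr11:102469834-102470133, both on the minus strand, for Gp5 and Itga2b. By the GENCODE gene bounds given above, most of the Itga2b window, its marked letters included, lies inside the gene. The GENCODE gene bound of Itga2b thus lies upstream of the RefSeq start used here. Starts of single GENCODE transcripts were not compared. Capitals mark matches on either strand. The letters searched as a GATA motif were AGATAA and, as an alternative to it, TGATAA. The letters AGGAAG were searched as an ETS motif, and TGTGGT, searched as a RUNX motif, was in 0 of the 3 windows.
Dntt: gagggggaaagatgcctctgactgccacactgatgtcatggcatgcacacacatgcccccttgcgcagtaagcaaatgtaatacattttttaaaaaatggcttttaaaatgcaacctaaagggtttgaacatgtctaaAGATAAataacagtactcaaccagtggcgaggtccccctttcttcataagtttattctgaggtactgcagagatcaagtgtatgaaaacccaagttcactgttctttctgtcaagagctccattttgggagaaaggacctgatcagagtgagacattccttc
Gp5: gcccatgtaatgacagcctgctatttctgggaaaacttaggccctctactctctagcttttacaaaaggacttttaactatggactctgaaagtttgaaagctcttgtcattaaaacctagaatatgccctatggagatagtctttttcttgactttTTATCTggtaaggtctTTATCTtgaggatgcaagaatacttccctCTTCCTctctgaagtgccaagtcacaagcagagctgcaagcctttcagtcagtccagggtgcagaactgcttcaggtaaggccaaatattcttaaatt
Itga2b: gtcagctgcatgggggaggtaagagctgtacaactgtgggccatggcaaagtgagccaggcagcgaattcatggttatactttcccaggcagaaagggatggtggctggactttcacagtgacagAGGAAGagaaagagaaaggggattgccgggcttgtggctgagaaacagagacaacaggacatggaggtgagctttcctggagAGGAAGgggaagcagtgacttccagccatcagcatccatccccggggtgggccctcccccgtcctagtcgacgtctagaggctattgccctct
The Dntt window held 1 GATA match, the Gp5 window 2 GATA matches and 1 ETS match, and the Itga2b window 2 ETS matches. Promoters were found for 100 of the 133 genes that rose (147 windows) and for 144 of the 189 that fell (198 windows). The GATA letters were in 14.3% of the windows of genes that rose, 22.7% of those of genes that fell and 11.1% of 13444 windows of genes tested. The ETS letters were in 42.9%, 33.3% and 34.2% of the same windows, and the RUNX letters in 18.4%, 14.1% and 13.2%. Of 12 windows of megakaryocyte genes that fell, 5 held the GATA letters, 7 the ETS letters and 1 the RUNX letters. These matches are a description of letters, with no test.

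Of 27 erythroid genes, 9 fell in mutant MPP4 and 0 rose, while 10 had a positive difference and the median was -1.56. Aqp1, the aquaporin 1 gene, had 0.286, 0.627, 0.848 and 0.109 CPM in mutant MPP4, against 30.2, 28.2 and 9.26 CPM in mutant LT-HSC, a difference of -5.56 ± 0.63 (SE, adjusted p = 3.07e-05). Car1, a carbonic anhydrase gene, had 0.143, 0.125, 0.121 and 0 CPM in mutant MPP4, against 41.6, 13.9 and 2.97 CPM in mutant LT-HSC, and was 222-fold lower in mutant MPP4 (counting interval 75.5 to 1078, adjusted p = 0.000263). Both genes were lowest in LT-HSC in replicate 3. Gata1, the erythroid and megakaryocyte transcription factor gene, averaged 0.2504 ± 0.501 CPM in mutant MPP4, against 14.7 ± 9.05 CPM in mutant LT-HSC, and Klf1, an erythroid transcription factor gene, had no count in mutant MPP4 and averaged 2.99 ± 2.40 CPM in mutant LT-HSC. Car2 and Gfi1b, a repressor gene of both lines, fell by 1.56 ± 0.24 and 2.22 ± 0.35 on the log2 scale. Late red cell markers summed to 188.0 to 811.6 CPM in mutant MPP4 and 283.3 to 730.7 CPM in mutant LT-HSC, and of 10 tested edgeR called Ermap, which fell, DESeq2 called 2 and limma 0. Of these 10 markers 6 were higher and 4 lower in mutant MPP4, with a median of 0.10.

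Genes known for higher RNA in aged stem cells, a list that shares members with the stem cell and platelet lists, were lower in mutant MPP4 for all 21 tested, with 12 called and a median of -3.37. Aldh1a1, an aldehyde dehydrogenase gene, had 3.00, 2.26, 0.605 and 0.651 CPM in mutant MPP4, against 80.0, 72.3 and 70.5 CPM in mutant LT-HSC, a difference of -5.52 ± 0.64 (SE, adjusted p = 3.66e-05) with no overlap, and was also the 1 call among 26 FoxO and antioxidant genes. Selp, the P-selectin gene, averaged 14.6 ± 4.29 CPM in mutant MPP4, against 57.5 ± 14.7 CPM in mutant LT-HSC, and Itgb3, the integrin beta 3 gene, averaged 6.23 ± 4.84 CPM in mutant MPP4, against 56.3 ± 15.8 CPM in mutant LT-HSC; both fell. The count of 12 was 7 without mutant MPP4 replicate 1 or mutant LT-HSC replicate 1 and 6 without mutant LT-HSC replicate 3. All mice were young, so age was not compared.

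**Figure D3:**
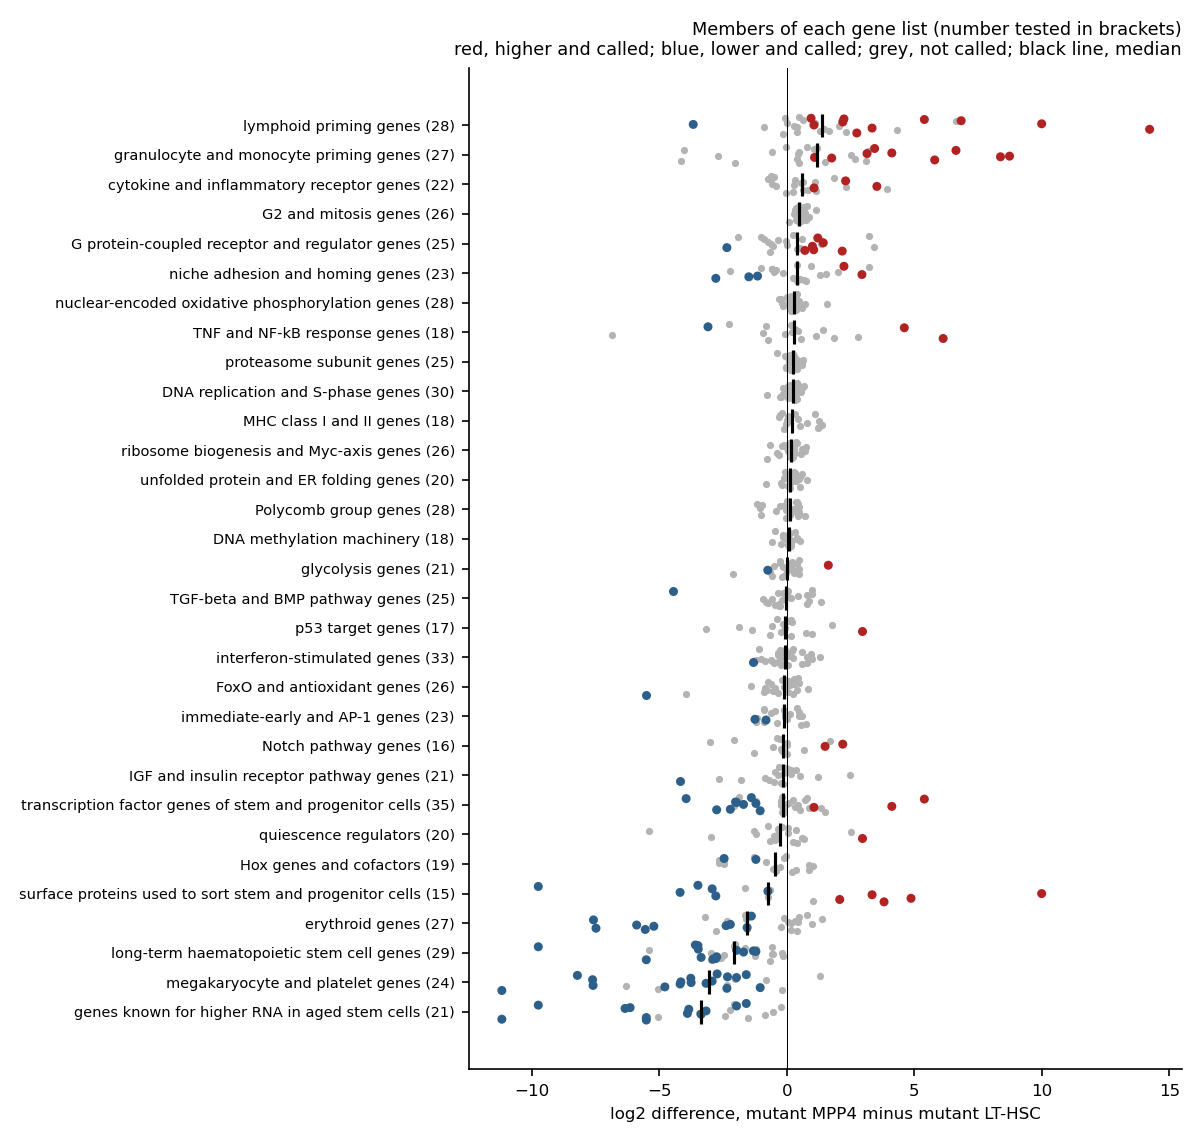
Log2 difference, mutant MPP4 minus mutant LT-HSC, of every tested member of 31 gene lists, with the median of each list; called members are coloured. The list of lymphoid priming genes has a median of 1.38, and that of genes of aged stem cells a median of -3.37.

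Transcription factor genes of stem and progenitor cells moved both ways, with 3 of 35 called higher in mutant MPP4 (Ikzf1, Irf8 and Satb1) and 9 lower. Ikzf1, the Ikaros gene, had 619, 620.1, 655 and 607 CPM in mutant MPP4, against 306, 296 and 297 CPM in mutant LT-HSC. The spread within each population was narrow, and the difference was 1.06 ± 0.18 (SE, adjusted p = 0.00184). Nfia, a nuclear factor I gene, fell by 2.02 ± 0.29 on the log2 scale, and Tal1, a factor gene of early blood formation, averaged 50.3 ± 13.0 CPM in mutant MPP4, against 132 ± 29.5 CPM in mutant LT-HSC. Of 19 Hox genes and cofactors, 2 fell, Meis1 among them (10.5%, beside 1.28% of all genes), and 0 rose.

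Several receptor genes rose in mutant MPP4. Of 22 cytokine and inflammatory receptor genes, Il1r1, Il6ra and Il17ra rose and 0 fell; the 3 were 1 without mutant LT-HSC replicate 3 and 5 with DESeq2 or with the 7 libraries alone. Il6ra had an adjusted p up to 0.0729 with 1 library left out and Il17ra an adjusted p up to 0.155 with 1 library left out, and Il17ra was not called with library totals. Il1r1, the interleukin-1 receptor gene, had 76.7, 107, 92.5 and 130.4 CPM in mutant MPP4, against 10.8, 8.29 and 7.21 CPM in mutant LT-HSC, a difference of 3.53 ± 0.42 (SE, adjusted p = 4.67e-05) with no overlap. Of 25 genes of G protein-coupled receptors and their regulators 6 rose, among them Adgrg3 (2.17 ± 0.30), Rgs2 (1.21 ± 0.23), Gpr171 (1.00 ± 0.21) and Calcrl (1.05 ± 0.23), and F2r fell. The 6 were 3 without mutant MPP4 replicate 1 or mutant LT-HSC replicate 3, 2 without mutant LT-HSC replicate 1 and 0 without the 2 mutant LT-HSC libraries high in Igkc. Gpr171 had an adjusted p up to 0.103 with 1 library left out and Calcrl an adjusted p up to 0.128 with 1 library left out. In the Notch list, Notch1 and Maml3, a Notch co-activator gene, rose among 16 tested. Tgfbr3, the betaglycan gene, was edgeR's 1 call among 25 genes of the TGF-beta and BMP pathways, with 2.58, 2.01, 10.7 and 6.84 CPM in mutant MPP4, against 97.8, 158 and 110.4 CPM in mutant LT-HSC (difference -4.47 ± 0.51, adjusted p = 3.07e-05); DESeq2 called 1 higher and 2 lower. Grb10, an adaptor gene of insulin and IGF receptors, was edgeR's 1 call among 21 genes of that pathway, of which DESeq2 called 2, with 3.15, 8.77, 8.23 and 5.54 CPM in mutant MPP4, against 131, 101 and 120.2 CPM in mutant LT-HSC (difference -4.19 ± 0.43, adjusted p = 9.56e-06). For Tgfbr3 and Grb10 every MPP4 value was far below every LT-HSC value. Of 23 niche adhesion genes, 2 rose, Itgal among them, and Esam, Itga5 and Itga6 fell. Itgal had an adjusted p up to 0.184 with 1 library left out, Itga5 an adjusted p up to 0.0599 with 1 library left out and Itga6 an adjusted p up to 0.123 with 1 library left out. Among other genes with the smallest p-values, Ptgs1, the cyclooxygenase 1 gene, averaged 11.9 ± 3.17 CPM in mutant MPP4, against 88.8 ± 1.21 CPM in mutant LT-HSC. Plxnc1, a semaphorin receptor gene, averaged 82.5 ± 18.4 CPM in mutant MPP4, against 415 ± 55.5 CPM in mutant LT-HSC, and St3gal1, a sialyltransferase gene, averaged 98.9 ± 6.32 CPM in mutant MPP4, against 284 ± 35.8 CPM in mutant LT-HSC. Robo3, a guidance receptor gene, was 233-fold lower in mutant MPP4 (counting interval 64.1 to 1932).

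Inflammatory and stress lists held 1 to 3 called genes each. Of 33 interferon-stimulated genes, Ifih1, the gene of the RNA sensor MDA5, fell by 1.33 ± 0.31 on the log2 scale (adjusted p = 0.0236, and 0.054 to 0.156 without any single library), and 0 rose; 1 of 33 is 3.03%, beside 1.28% of all genes. Of 18 genes of the TNF and NF-kB response, Ccl3 and Tnf rose (11.1%, beside 0.901% of all genes) and Tnfaip2 fell (5.56%, beside 1.28%). Tnf had an adjusted p up to 0.147 with 1 library left out and Tnfaip2 an adjusted p up to 0.0588 with 1 library left out. Of 23 immediate-early genes, Fos and Fosb fell (8.7%, beside 1.28% of all genes). Fos, an AP-1 subunit gene, had 171, 146, 208 and 176 CPM in mutant MPP4, against 348, 299 and 281 CPM in mutant LT-HSC (adjusted p = 0.0493, and 0.0466 to 0.227 without any single library), and was not called with no filter or with a filter of 1 CPM. Fosb, another, had 295, 221, 213 and 265 CPM in mutant MPP4, against 923, 273 and 589.6 CPM in mutant LT-HSC, so that mutant LT-HSC replicate 2 lay within the MPP4 range (adjusted p = 0.0391, and 0.00446 to 0.366 without any single library). Cdkn1a, the gene of the cell cycle inhibitor p21, was edgeR's 1 call among 20 quiescence regulators and its 1 call among 17 p53 targets, with 16.5, 57.5, 18.9 and 28.9 CPM in mutant MPP4, against 1.40, 6.33 and 4.00 CPM in mutant LT-HSC (difference 2.95 ± 0.60, adjusted p = 0.0101, adjusted p up to 0.0689 with 1 library left out). Of the quiescence regulators DESeq2 called 2 higher and 2 lower, and limma 1 and 1. Among 21 glycolysis genes Pgam1 rose by 1.62 ± 0.33 (adjusted p up to 0.0676 with 1 library left out) and Ldha fell by 0.75 ± 0.16 on the log2 scale (adjusted p up to 0.0879 with 1 library left out).

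Genes of cell growth and division gave small differences. All 26 genes of mitosis were higher in mutant MPP4, with a median of 0.48, beside 7684 of all 14766 genes tested. Of the 26, edgeR called 0, DESeq2 3 and limma 3. At an unadjusted p under 0.05 in edgeR 9 were higher, beside 696 of all genes tested. Kif11, a spindle motor gene, averaged 291 ± 49.3 CPM in mutant MPP4 and 182 ± 17.8 CPM in mutant LT-HSC (difference 0.67 ± 0.20, adjusted p = 0.0945), and Kif23, a cytokinesis motor gene, averaged 96.8 ± 8.89 CPM in mutant MPP4 and 43.7 ± 19.3 CPM in mutant LT-HSC (difference 1.14 ± 0.34, adjusted p = 0.101). In 9 lists edgeR called 0 members, namely DNA replication (median 0.24), mitosis, DNA methylation (0.08), oxidative phosphorylation (0.26), ribosome biogenesis (0.17), unfolded protein response (0.12), antigen presentation (0.21), Polycomb (0.11) and proteasome (0.25). Of their 219 tested members 22 were higher and 6 lower at an unadjusted p under 0.05, beside 696 and 838 of all 14766 genes tested. DESeq2 called 7 of the 219 and limma 3. With library totals in place of TMM factors the median over all genes was -0.09, a shift of -0.113, and the medians of the DNA methylation and Polycomb lists turned negative.

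Mutant ST-HSC and MPP3 mostly lay between the 2 populations or beyond MPP4. The ST-HSC mean was between those of MPP4 and LT-HSC for 123 of the 133 genes that rose and 153 of the 189 that fell, and the MPP3 mean for 89 and 141. The highest of the 4 mutant means was in MPP4 for 88 of the genes that rose and in MPP3 for 42. The lowest was in MPP4 for 160 of the genes that fell and in MPP3 for 28. Dntt averaged 300.0 CPM in mutant MPP4, 37.0 CPM in mutant MPP3 and 1.96 CPM in mutant ST-HSC, and Mpo averaged 656 CPM in mutant MPP4, 6360.2 CPM in mutant MPP3 and 97.6 CPM in mutant ST-HSC. These orders are a description, since the MPP4 and LT-HSC values chose the genes.

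Single marker genes of other cells differed between libraries. Igkc, the immunoglobulin kappa constant gene, had 1.43, 0.752, 0.121 and 0.868 CPM in mutant MPP4, against 78.8, 3.80 and 93.7 CPM in mutant LT-HSC. Mutant LT-HSC replicates 1 and 3 stood far above the other libraries (difference -6.21 ± 1.25, adjusted p = 0.00911), and without them the difference was -2.29 (adjusted p = 1). Reads of Igkc can be shared with other immunoglobulin genes, so its count is uncertain. Of 7 tested plasma cell markers Igkc was the 1 that edgeR called, while DESeq2 called 2 and limma 0, and the list summed to 56.1 to 100.4 CPM in mutant MPP4, against 77.3 to 166.3 CPM in mutant LT-HSC, with Tnfrsf17 at 0 in both. S100a8, a neutrophil gene, had 2.58, 2.51, 53.9 and 20.3 CPM in mutant MPP4, against 17.1, 67.2 and 5.83 CPM in mutant LT-HSC, and was not called (difference -0.62 ± 1.00, adjusted p = 0.963). Without the 2 libraries over 50 CPM of S100a8, mutant MPP4 replicate 3 and mutant LT-HSC replicate 2, 49 genes rose and 78 fell, of which 47 and 75 were among the 322, and the lymphoid, granulocyte and monocyte, stem cell and megakaryocyte counts were 7, 3, 5 and 15. Without the 2 mutant LT-HSC libraries over 50 CPM of Igkc, 25 rose and 52 fell, of which 23 and 52 were among the 322, and the same 4 counts were 5, 3, 2 and 10. Of the remaining marker lists, edgeR called 0 of 6 T and NK cell markers, as did DESeq2 and limma, with 0 at an unadjusted p under 0.05. It called Mcpt8 higher among 7 basophil and mast cell markers, whose sum was 7.52 to 16.4 CPM in mutant MPP4 and 9.26 to 15.7 CPM in mutant LT-HSC. Tie1, an endothelial gene, fell among 11 markers of stroma and endothelium, whose sum was 181.6 to 427.1 CPM in mutant MPP4 and 196.0 to 275.8 CPM in mutant LT-HSC. Column names carry 1 of 2 prefixes, whose meaning is not given: mutant MPP4 replicates 1 and 2 share theirs with mutant LT-HSC replicate 3, and the other 4 libraries share the other. Within the first, 26 genes rose and 28 fell, and within the second 39 rose and 44 fell. Flt3 differed by 2.85 and 3.66 within them and Gata2 by -2.96 and -2.52.

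In control mice, 221 of 14937 genes rose in MPP4 relative to LT-HSC (1.48%) and 449 fell (3.01%), or 4.49% in all. Of the 133 genes that rose in the mutant, 67 also rose in the control (50.4%, and 30.3% of the 221), and of the 189 that fell, 122 also fell (64.6%, and 27.2% of the 449). Igsf6 and Elane, which rose in the mutant, fell in the control. Flt3 differed by 2.78 in control mice (adjusted p = 2.4e-06). Dntt had 209.7, 403, 278 and 224 CPM in control MPP4, against 5.003, 0.356, 0.704 and 0.282 CPM in control LT-HSC. Control MPP4 was thus above control LT-HSC in every library. Atp8b4 and Mpo, which rose in the mutant, differed by 0.88 (adjusted p = 0.697) and 1.59 (adjusted p = 0.326) in the control. Neither was called in edgeR's test of the interaction with genotype described below. Of 27 granulocyte and monocyte priming genes 3 rose and 8 fell in the control, with a median of -0.70, and of 27 erythroid genes 25 fell, with a median of -4.02. S100a8 had 2258, 583, 349 and 3.67 CPM in control LT-HSC, so that replicates 1 to 3 were high. Summed neutrophil markers were 110.0 to 12767 CPM and late red cell markers 432.9 to 29012 CPM in control LT-HSC. Without these 3 libraries the control counts were 40 and 49; a single control LT-HSC library was left, which was assumed to vary like the other groups.

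**Figure D4:**
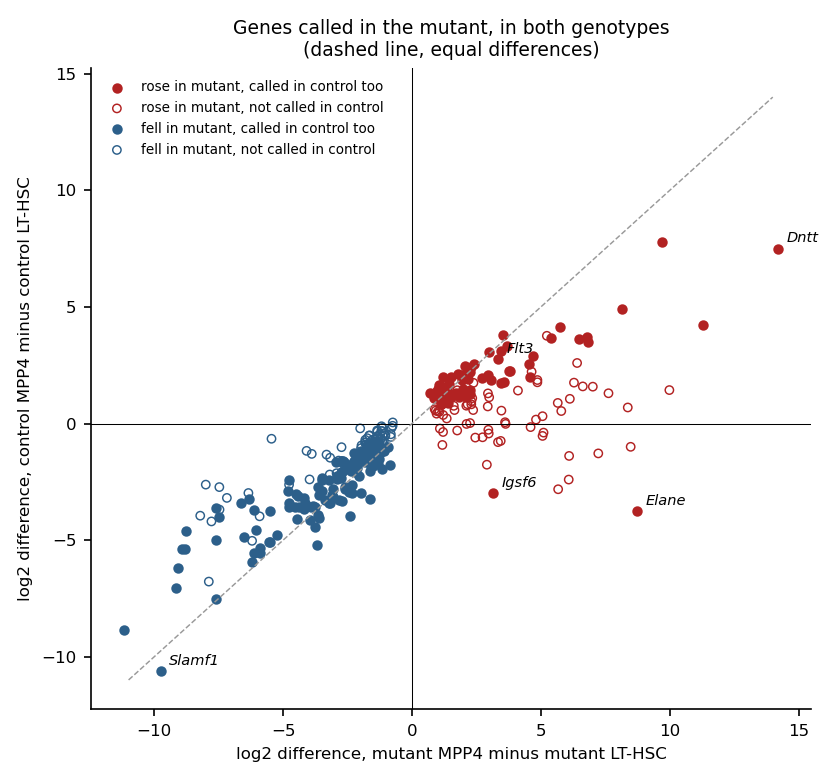
Log2 difference between MPP4 and LT-HSC in mutant (horizontal) and control mice (vertical) of genes called in the mutant, with those also called in the control marked. Of the 133 genes that rose, 109 have a positive control difference, and of the 189 that fell, 186 have a negative one.

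Whether the population difference depended on genotype was tested over all 29 libraries. Of 15915 genes, 7 had a higher MPP4 minus LT-HSC difference in the mutant than in the control (0.044%) and 0 a lower one (0%) in edgeR; 627 and 295 had an unadjusted p under 0.05, DESeq2 called 76 and 6, and limma called 0. The log2 interactions of 6 of them were 12.52 ± 2.42 for Elane, 11.42 ± 2.14 for Clec5a, 6.19 ± 1.16 for Cxcl2, 6.14 ± 1.16 for Igsf6, 5.27 ± 0.95 for Clec12a and 2.93 ± 0.54 for Cd53, each with an adjusted p of 0.0435. Elane, the neutrophil elastase gene, had 1.14, 21.7, 2.54 and 1.30 CPM in mutant MPP4, against 0, 0 and 0 CPM in mutant LT-HSC. In the control mice Elane had 1.23, 4.03, 2.10 and 6.65 CPM in control MPP4, against 114, 44.9, 40.6 and 0 CPM in control LT-HSC, so that it was high in control LT-HSC replicates 1 to 3. Clec12a had 67.2, 65.2, 51.3 and 80.2 CPM in control MPP4, against 122, 42.4, 17.2 and 3.24 CPM in control LT-HSC. Cd53 had 116, 109, 99.1 and 91.4 CPM in control MPP4, against 126, 78.5, 66.9 and 13.7 CPM in control LT-HSC. For each of these 6 genes control LT-HSC replicate 4, the one low in S100a8, was the lowest of its group. Without the other 3 control LT-HSC libraries 0 genes were called, and the interaction was 0.89 for Elane, 1.58 for Clec5a, 2.79 for Cxcl2, 3.99 for Igsf6, 1.47 for Clec12a and 0.57 for Cd53, each with an adjusted p of 1. The count was 61 without control LT-HSC replicate 4, 10 without control LT-HSC replicate 3, 7 without mutant MPP4 replicate 2, 2 without mutant MPP4 replicate 3, and 0 without any other single library of the 4 groups. The part of other cells in the interaction was not tested.

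**Figure D5:**
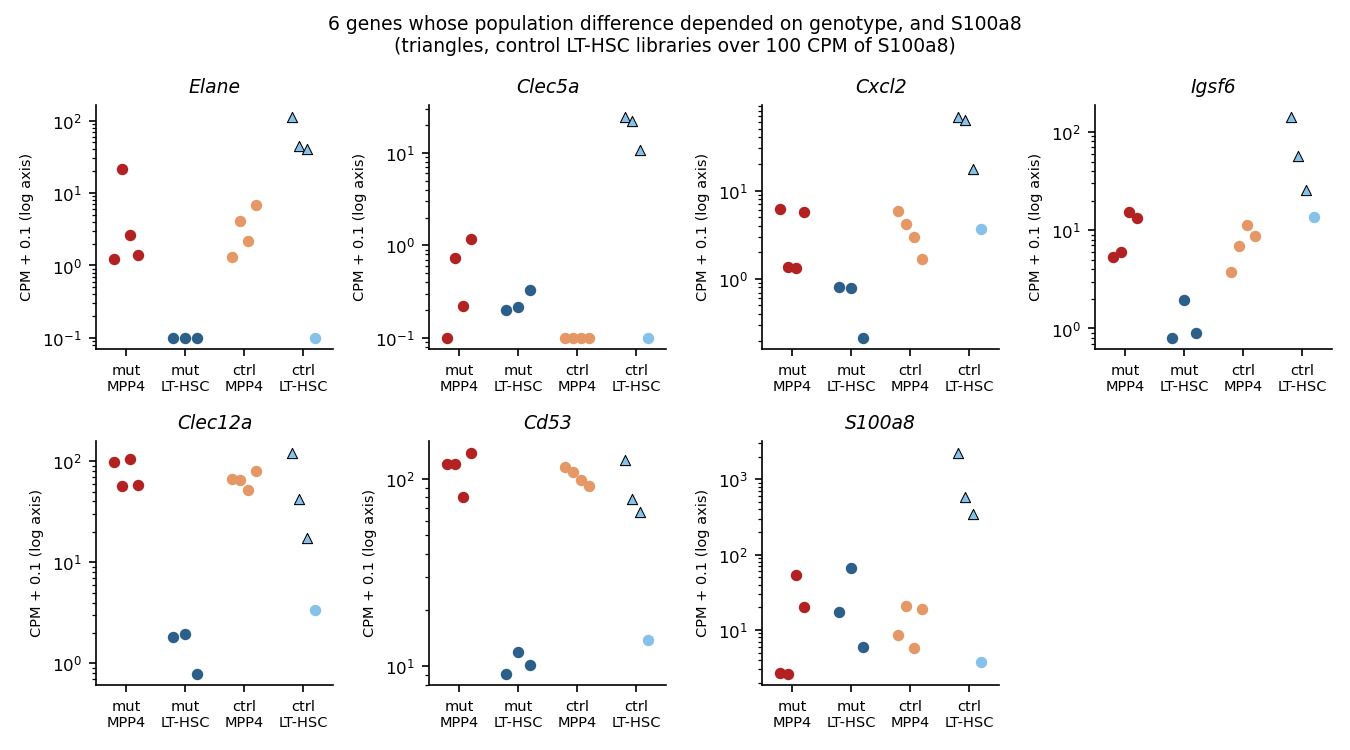
CPM plus 0.1 on a log axis of 6 genes that edgeR called in the interaction test, and of S100a8, in each library of mutant MPP4, mutant LT-HSC, control MPP4 and control LT-HSC. In the same test limma called 0 genes. Triangles mark control LT-HSC replicates 1 to 3, which lie above control LT-HSC replicate 4 for all 7 genes.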

How the data were processed

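Gene counts of polyA RNA libraries were deposited as 1 table of expected counts by the authors; the submitters' processing notes list GRCm38, Bowtie2 2.2.0, RSEM 1.2.12, edgeR 3.5.3 and SAMtools 0.1.18, with no order, and the deposited values were whole numbers. Symbols and positions came from GENCODE annotation of GRCm38, which matched 37607 of 38924 identifiers. Libraries were grouped by the labels.

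The counts were filtered by expression (count minimum 10, total minimum 15), scaled by TMM factors and tested with the quasi-likelihood F test of edgeR 4.0.16 in R 4.3.3. The mutant fit held 15 libraries with 4 group means and 11 residual degrees of freedom, the control fit 14 libraries, and the interaction fit 29 libraries with 8 group means. The SE is the difference divided by the square root of F. Adjusted p-values are Benjamini-Hochberg values over all genes tested, two-sided. The fits were tested on simulated data. Library totals of the mutant MPP4 and LT-HSC libraries were 7410008 to 9416995 counts, and all replicate pairs differed by more than sampling noise. DESeq2 1.42.0, limma 3.58.1, other scalings, filters and sets of libraries were tried as alternatives.

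The populations compared and the gene lists were chosen with earlier results of these data known. Named genes were the protein-coding called genes without overlap and with at least 10 CPM, the 10 with the smallest p and the 6 with the largest difference in each direction, up to 4 called members of each list and direction (where 0 were called, the 2 with the smallest p), all sorting markers, Dnmt3a and the interaction calls. Other genes were added as examples of their lists after their values were seen, and a few genes that the rule names are not reported here. Levels were compared with no correction for mitochondrial RNA.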

Additional observations from a re-analysis of the deposited data

Results flagged for a closer look

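In the 4 libraries of mutant MPP4, 4 values of named genes were flagged as standing apart from the rest by Dixon's test. Chance gives such a value in about 1 in 20 sets of 4 values, and many named genes were looked at. The list does not cover other groups, such as mutant ST-HSC. St3gal1 had 108.3 CPM in mutant MPP4 replicate 1, against 94.6 to 96.5 CPM in the other replicates. Ndufa4, a gene of the respiratory chain, had 175.3 CPM in mutant MPP4 replicate 3, against 38.4 to 48.8 CPM. Maml3 had 125.3 CPM in mutant MPP4 replicate 1, against 95.8 to 100.3 CPM. Elane had 21.7 CPM in mutant MPP4 replicate 2, against 1.14 to 2.54 CPM.

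In edgeR's interaction test 7 genes had a higher MPP4 minus LT-HSC difference, taken with its sign, in the mutant than in the control. The log2 interactions of 6 of them were 12.52 for Elane, 11.42 for Clec5a, 6.19 for Cxcl2, 6.14 for Igsf6, 5.27 for Clec12a and 2.93 for Cd53. A higher signed difference need not be a larger one. The mutant difference was 1.56 for Clec5a (adjusted p = 0.81 in edgeR) and 2.79 for Cxcl2 (adjusted p = 0.216), and neither was called. Beside the interactions stand the S100a8 levels of 2258, 583, 349 and 3.67 CPM in the control LT-HSC libraries.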

How the results depend on the processing

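For the mutant populations, 237 genes rose and 292 fell with the 7 libraries alone and 262 and 316 with DESeq2. In the alternatives chosen after seeing the data, 26 and 28 were called within the first column prefix, 39 and 44 within the second, 49 and 78 without libraries over 50 CPM of S100a8, and 25 and 52 without those over 50 CPM of Igkc. Without any single library, 65 to 118 rose and 107 to 146 fell. The other alternatives were within 1.5 times of the main counts, and with library totals 110 rose and 209 fell. Every one of the 322 genes with a value kept its direction in every setting, except 1 that fell, without the libraries high in Igkc. The 322 were chosen from these same libraries, and 318 of them had no overlap between the populations. Leaving out libraries could thus hardly turn their direction, so the kept direction is no separate support.

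For the control, DESeq2 gave 342 and 719, limma 244 that fell, and the fit without libraries over 100 CPM of S100a8 40 and 49; without any single library 139 to 200 rose and 251 to 554 fell. For the interaction, 2 genes rose with 15 libraries, 76 with DESeq2, 0 with limma, 0 with library totals, 35 with no filter, 0 with the replicate block and 0 without libraries over 100 CPM of S100a8, and 0 to 61 without any single library; 6 fell with DESeq2 and 1 with no filter. The S100a8 difference of -0.62 was 0.79, reversed, without mutant LT-HSC replicate 2 and -1.83 without mutant MPP4 replicate 3, the highest and lowest without any single library.

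The sample descriptions hold a number, other than the replicate number used here, that libraries of different populations share: mutant MPP4 replicates 2, 3 and 4 share it with mutant LT-HSC replicates 3, 1 and 2. The labels do not say what it stands for. The deviations of these 3 pairs from their group means correlated at 0.163, -0.0522 and -0.0834, so pairing was not taken as given; pairs with the same replicate number had 0.0859, -0.146 and -0.175. With the description number as the replicate block, 130 rose and 174 fell in the mutant and 198 and 392 in the control. Slamf1 and Il7r, with 1 and 0 counts in the lower population, lost their calls in 12 and 9 of the settings, while Dntt and Cavin2, with 0 counts there, kept theirs in all; the cause was not tested.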

Other observations

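Genes of the SLAM receptors on chromosome 1, chosen after their values were seen, did not move as a block. Of 9 tested, Cd48, Cd244a and Slamf6 rose in mutant MPP4 and Slamf1 fell. Slamf6 had 20.9, 2.01, 0.363 and 0.760 CPM in mutant MPP4, against 0, 0 and 0.229 CPM in mutant LT-HSC, so that mutant MPP4 replicate 1 held most of its RNA (adjusted p = 0.0423 in edgeR). Cd84, another member, had 55.5, 74.2, 81.9 and 87.2 CPM in mutant MPP4, against 48.8, 68.1 and 73.4 CPM in mutant LT-HSC, and was not called (difference 0.23 ± 0.26, adjusted p = 0.938). Reads of Cd244a and Ly9, which overlap on opposite strands, may not be told apart.

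Of 12 toll-like receptor genes, also chosen after their values were seen, 2 rose in mutant MPP4. Tlr7, a sensor gene of single-stranded RNA, had 23.5, 24.1, 26.6 and 28.1 CPM in mutant MPP4, against 0.200, 0 and 0.343 CPM in mutant LT-HSC, with no overlap and a difference of 7.02 ± 1.32 (SE, adjusted p = 0.00491) in edgeR. In control mice Tlr7 differed by 1.58 (adjusted p = 0.353), with 31.8, 24.5, 29.9 and 41.8 CPM in control MPP4, against 26.7, 9.86, 6.34 and 0.282 CPM in control LT-HSC; control LT-HSC replicates 1 to 3 were also high in S100a8. The interaction of Tlr7 with genotype was 5.45 ± 1.52 (SE) and was not called (adjusted p = 0.318 in edgeR). Tlr11 had 1.00, 5.52, 9.69 and 1.74 CPM in mutant MPP4, against 0, 0 and 0 CPM in mutant LT-HSC, and was at least 13.6-fold higher in mutant MPP4 (adjusted p = 0.0383).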
